A study of Mus musculus with 40 samples.

Results

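The genes described here are 10 genes of the circadian clock: the period genes Per1, Per2 and Per3, the PAR bZIP transcription factors Dbp and Tef, the REV-ERB receptors Nr1d1 and Nr1d2, the repressor Ciart, and the activators Clock and Npas2. They were taken by symbol, and all 10 were present among the 14318 genes measured by RNA-sequencing in 39 primary mammary tumors. The tumors grew in wild-type female BALB/c mice that were mated at 8 weeks of age, gave birth, and received 4T1-luc or 66cl4-luc cells through the teat canal while lactating. Both are luciferase-expressing mouse lines of triple-negative breast cancer (TNBC). Mice stayed untreated or received, by i.p. injection, 200 µg anti-PD-1 (an antibody against the T-cell checkpoint receptor PD-1), 1 mg chitin (a polysaccharide used to block chitinase-like proteins), or chitin + anti-PD-1, and tumors were taken at 5 weeks post-inoculation (w p.i.). Each of the 8 groups held 5 tumors, except for untreated 4T1 with 4, as the RNA of 1 further tumor was degraded. Each model stands for 1 injected cell line, and RNA came from whole tumors with their host cells, so that fewer cells of a type and less RNA per cell cannot be told apart. Cells were placed into a pair of glands in each mouse and the sources used here do not tie tumors to mice, so tumors of a group may share a mouse, and p-values over tumors are then too small. The hour at which tumors were taken is not given in the sources used here. Differences of clock genes between groups or between tumors therefore cannot be told apart from differences in that hour.

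In nearly every mammalian cell, CLOCK (or its relative NPAS2) pairs with BMAL1, binds E-box sequences and switches on the Per and Cry genes, whose proteins return to the nucleus and block the pair that made them. The same pair switches on Nr1d1, Nr1d2, Dbp, Tef and Ciart. REV-ERB proteins in turn repress Bmal1, Cry1 and Nfil3, and DBP and TEF compete with the repressor NFIL3 for D-box sequences. Transcripts of the Per, Dbp, Tef and Nr1d genes therefore peak at other hours than those of Bmal1 and Nfil3, and Per1 also responds directly to glucocorticoids.

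The promoters carry letters of these feedback loops. RefSeq windows on GRCm38.p6, from 250 bases before to 50 after each annotated start, were found for 9 of the 10 genes, and Per2 was not in the table. Both strands were searched for the E-box CACGTG, the E′-box CACGTT or AACGTG, the D-box TTATGTAA or TTACATAA, and the letters AGGTCA or TGACCT that REV-ERB and ROR receptors bind. No motif found overlapped another. Among all 32851 promoters of the table, 7.15% held an E-box, 4.68% an E′-box, 0.938% a D-box and 16.3% the REV-ERB letters. The Ciart promoter held 3 E-boxes, as 29 promoters (0.0883%) held 3 or more, and the Per3 promoter held 2 D-boxes, as 7 promoters (0.0213%) held 2 or more. The stretches below are for 6 of the genes and read 5′ to 3′ along the gene. Capitals mark only the kind of motif named with each stretch. A match is a description of the letters and not of a bound site.

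Ciart, E-boxes, chr3:95882259-95882358, minus strand: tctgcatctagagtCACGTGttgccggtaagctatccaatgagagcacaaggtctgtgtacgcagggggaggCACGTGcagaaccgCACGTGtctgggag
Per1, E-box, chr11:69098759-69098838, plus strand: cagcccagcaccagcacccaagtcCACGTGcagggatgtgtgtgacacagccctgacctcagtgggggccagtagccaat
Tef, E-box, chr15:81802513-81802592, plus strand: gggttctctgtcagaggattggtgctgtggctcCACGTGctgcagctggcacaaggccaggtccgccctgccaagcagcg
Per3, D-boxes, chr4:151044786-151044885, minus strand: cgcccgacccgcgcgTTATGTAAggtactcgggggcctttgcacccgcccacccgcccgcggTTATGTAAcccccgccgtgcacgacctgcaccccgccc
Nr1d2, REV-ERB letters, chr14:18239137-18239216, minus strand: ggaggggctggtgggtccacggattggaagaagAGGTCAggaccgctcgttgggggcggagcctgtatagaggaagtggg
Nr1d1, E′-box, chr11:98775388-98775447, minus strand: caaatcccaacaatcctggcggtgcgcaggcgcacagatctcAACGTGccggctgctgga

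The Dbp and Npas2 windows held none of these motifs. The Clock window at the third annotated start held the REV-ERB letters. The Per1 window held them as well as the E-box shown, as TGACCT at base -137, in lower case within the stretch above. For Bmal1, the main target of REV-ERB repression, they began at base 32 after the second annotated start.

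Libraries held 5105898 to 14800352 reads in the listed genes, with a median of 6590274. Values are the deposited ones, on a scale that approaches log2 of the normalized count for well-covered genes and compresses differences between genes with few reads, on which no read is 6.05 and 16.93 the highest value of any gene. Members of low coverage were Npas2, with 0 to 31 reads in 4T1 and 0 to 4 reads in 66cl4 tumors, and Ciart, with 7 to 83 reads over all tumors. The other 8 genes had at least 30 reads in each of the 39 tumors. Per kilobase of exon, scaled to the reads of each library (RPKM), the REV-ERB genes were highest, with medians of 12.7 for Nr1d2 and 12.5 for Nr1d1 in 66cl4 tumors, followed by Dbp at 8.97, Per1 at 8.7 and Tef at 8.31. Per2 at 3.51, Clock at 3.49, Per3 at 2.48, Ciart at 0.919 and Npas2 at 0.0381 were lower on that scale. In 4T1 tumors the medians were 10.1 for Nr1d1, 8.87 for Nr1d2, 5.73 for Per1, 4.46 for Tef and 3.04 for Dbp, so Dbp ranked behind Clock (3.15) there.

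The 10 genes were chosen by name, selected on differences between groups of this table, though which of its values were used is not recorded. Per2 has the smallest p of all genes between the chitin-containing and the other 66cl4 groups. Differences between chitin-containing and other groups were therefore taken as used in the choice and are given as a description with no test. The other comparisons may have been in view as well, and their tests are not independent of the choice to that extent. Tests are limited to comparisons with the same chitin status, to the untreated tumors of both models, and to the deviations of tumors from their own group mean.

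**Figure D1:**
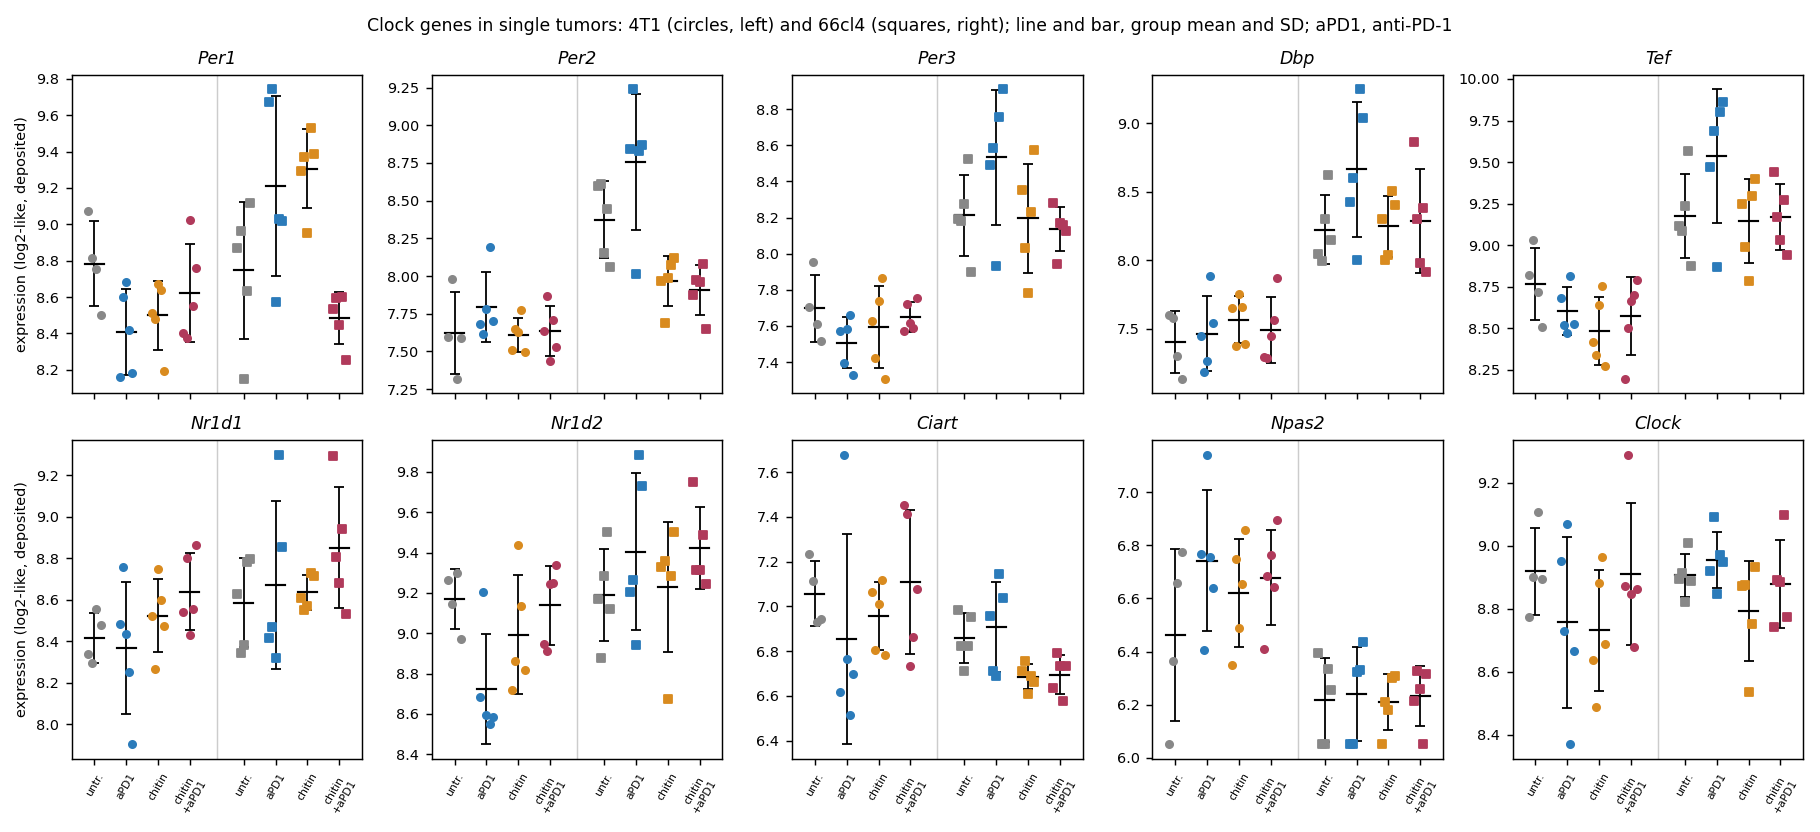
Deposited values of the 10 clock genes (y axis, log2-like scale) in each tumor of the 8 groups (x axis), with 4T1 tumors as circles on the left and 66cl4 tumors as squares on the right of each panel; lines and bars are group means and SD. Dbp lies higher in all 20 66cl4 tumors than in any 4T1 tumor, and Per1 in the 5 chitin-treated 66cl4 tumors lies above the 5 tumors that also received anti-PD-1. Of all genes, 43.1% did not overlap between the untreated groups of both models, and 0.817% between these 66cl4 groups.

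The period genes encode the main repressors of the clock. Per2 stood at 7.60, 7.98, 7.32 and 7.59 in the 4 untreated 4T1 tumors, on the deposited scale. It stood at 8.60, 8.61, 8.15, 8.44 and 8.06 in the 5 untreated 66cl4 tumors, all of them above the 4T1 tumors. Its highest values came from 66cl4 tumors given anti-PD-1 alone, at 8.84, 9.24, 8.01, 8.83 and 8.87, with tumor 3 well below the other 4. In 66cl4 tumors given chitin the values were 7.96, 7.69, 7.99, 8.08 and 8.12, and with chitin + anti-PD-1 they were 7.88, 7.97, 7.96, 8.08 and 7.65. The other 4T1 groups covered 7.43 to 8.19. Ordered by group mean, Per2 ran from 8.76 (66cl4 anti-PD-1) over 8.37 (66cl4 untreated) to 7.97 (66cl4 chitin), steps larger than the pooled SD of the groups on either side, although tumors of neighbouring groups overlapped. From there down to 7.61 in 4T1 chitin, no step between neighbours exceeded that SD.

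Per1, the period gene induced most directly by hormones and growth factors, had another order. Untreated tumors did not separate the models, with 9.07, 8.81, 8.75 and 8.50 in 4T1 and 8.87, 8.96, 8.15, 8.63 and 9.12 in 66cl4. Chitin-treated 66cl4 tumors were the highest group, at 9.29, 9.37, 8.95, 9.53 and 9.39. Chitin + anti-PD-1 gave 8.53, 8.60, 8.45, 8.60 and 8.26 in the same model, without overlap with chitin alone. The 66cl4 anti-PD-1 tumors spread widely over 9.68, 9.74, 8.57, 9.03 and 9.02. In the treated 4T1 groups Per1 lay between 8.16 and 9.02, with group means of 8.41, 8.50 and 8.62 and overlap between all 3 groups. Over all 8 groups, the only step between neighbouring Per1 means larger than their pooled SD was the one from 66cl4 anti-PD-1 (9.21) down to untreated 4T1 (8.78).

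Per3, a period gene that is dispensable for the rhythm itself, was higher in 66cl4. Untreated 66cl4 tumors stood at 8.19, 8.18, 8.27, 8.52 and 7.90, and untreated 4T1 tumors at 7.70, 7.95, 7.61 and 7.52, so that 1 tumor of each model met the other group. Means of the 4 66cl4 groups lay between 8.14 and 8.53 and those of the 4T1 groups between 7.51 and 7.70. The step from the lowest 66cl4 to the highest 4T1 group mean exceeded their pooled SD.

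Dbp and Tef encode output factors that activate genes through the D-box. Dbp was the member that separated the models without exception: the 19 4T1 tumors lay between 7.14 and 7.88 and the 20 66cl4 tumors between 7.91 and 9.25. The share of all genes that did so over the 39 tumors is not given here. Between the untreated groups alone, 43.1% of all genes did not overlap. Untreated 4T1 tumors had 7.60, 7.58, 7.30 and 7.14, and untreated 66cl4 tumors 8.05, 7.996, 8.30, 8.62 and 8.15. Within 66cl4, the anti-PD-1 group held both the highest tumors and a low one, at 8.42, 8.60, 8.01, 9.25 and 9.04. Chitin gave Dbp values of 8.30, 8.003, 8.04, 8.50 and 8.40, and chitin + anti-PD-1 gave 8.86, 8.30, 7.98, 8.38 and 7.91, both overlapping with untreated tumors. Group means of Dbp in 4T1 lay between 7.40 and 7.57, with an SD of 0.17 to 0.27 within groups.

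Tef lay between 8.20 and 9.03 in 4T1 and between 8.78 and 9.86 in 66cl4 tumors. Untreated tumors had 8.82, 9.03, 8.72 and 8.51 in 4T1 and 9.11, 9.08, 9.24, 9.57 and 8.88 in 66cl4, so that the groups overlapped at 1 4T1 tumor. The 66cl4 anti-PD-1 group repeated the picture of Dbp, with 9.47, 9.69, 8.87, 9.80 and 9.86 and again the low value in tumor 3.

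Nr1d1 and Nr1d2 encode the heme-binding REV-ERB receptors, which repress Bmal1. Nr1d1 ranged from 7.90 to 8.86 in 4T1 and from 8.32 to 9.30 in 66cl4 tumors, and Nr1d2 from 8.55 to 9.44 and from 8.67 to 9.89. Ordered by mean, no step between neighbouring groups exceeded their pooled SD for either gene. The 2 highest Nr1d1 values of the table were tumor 4 of the 66cl4 anti-PD-1 group (9.30) and tumor 1 of the 66cl4 chitin + anti-PD-1 group (9.29), the same tumors that had high Dbp. Nr1d1 overlaps the 3′ end of Thra by 1075 bases on the genome, and Dbp overlaps Sphk2 by 741 bases. Ciart lies within the longer noncoding gene C920021L13Rik. Reads were counted by strand.

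Ciart encodes a repressor of CLOCK and BMAL1. Its group means ran from 6.69 (66cl4 chitin) to 7.11 (4T1 chitin + anti-PD-1), and no step between neighbours exceeded the pooled SD. Clock, the constant partner of BMAL1, had the lowest SD within groups of the members in 66cl4 (0.12), with group means of 8.79 to 8.95, and of 8.73 to 8.92 in 4T1. Npas2, which can stand in for Clock, had at most 4 reads in any 66cl4 tumor and 31 in the highest 4T1 tumor, so its 66cl4 values are close to the level of no read and support no comparison between treatments there.

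Between untreated 4T1 and untreated 66cl4 tumors, 4 of the 10 clock genes passed the test, and all 4 were lower in 4T1. Limma was used for this and all following comparisons of groups, with p-values adjusted over all 14318 genes by the Benjamini-Hochberg method and a threshold of 0.05. On the deposited scale, Dbp was lower by 0.82 (difference -0.82 ± 0.19, SE, n = 4 and 5, adjusted p in limma = 0.00055), Per2 by 0.75 (-0.75 ± 0.16, adjusted p = 0.00017), Per3 by 0.52 (-0.52 ± 0.15, adjusted p = 0.0035) and Tef by 0.41 (-0.41 ± 0.16, adjusted p = 0.032). The models differ widely, and 55.8% of all genes passed the same test, 28.7% higher and 27.1% lower in 4T1, so the count of 4 of 10 is no larger a share than that of genes at large. At an unadjusted p under 0.05 stood the same 4 members and 60.2% of all genes. Tumors of both groups did not overlap for Per2 and Dbp, as was the case for 43.1% of all genes. The other 6 members did not pass, with differences of 0.04 (Per1), -0.17 (Nr1d1), -0.02 (Nr1d2), 0.20 (Ciart), 0.24 (Npas2, adjusted p in limma = 0.11) and 0.01 (Clock). The directions for Per1, Nr1d2 and Clock changed with the scaling or with single tumors. Tef did not pass with tumor weights (adjusted p in limma = 0.091) or without 1 of 4 untreated tumors, 4 or 5 of 4T1 and 3 or 4 of 66cl4 (adjusted p = 0.054 to 0.12).

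**Figure D2:**
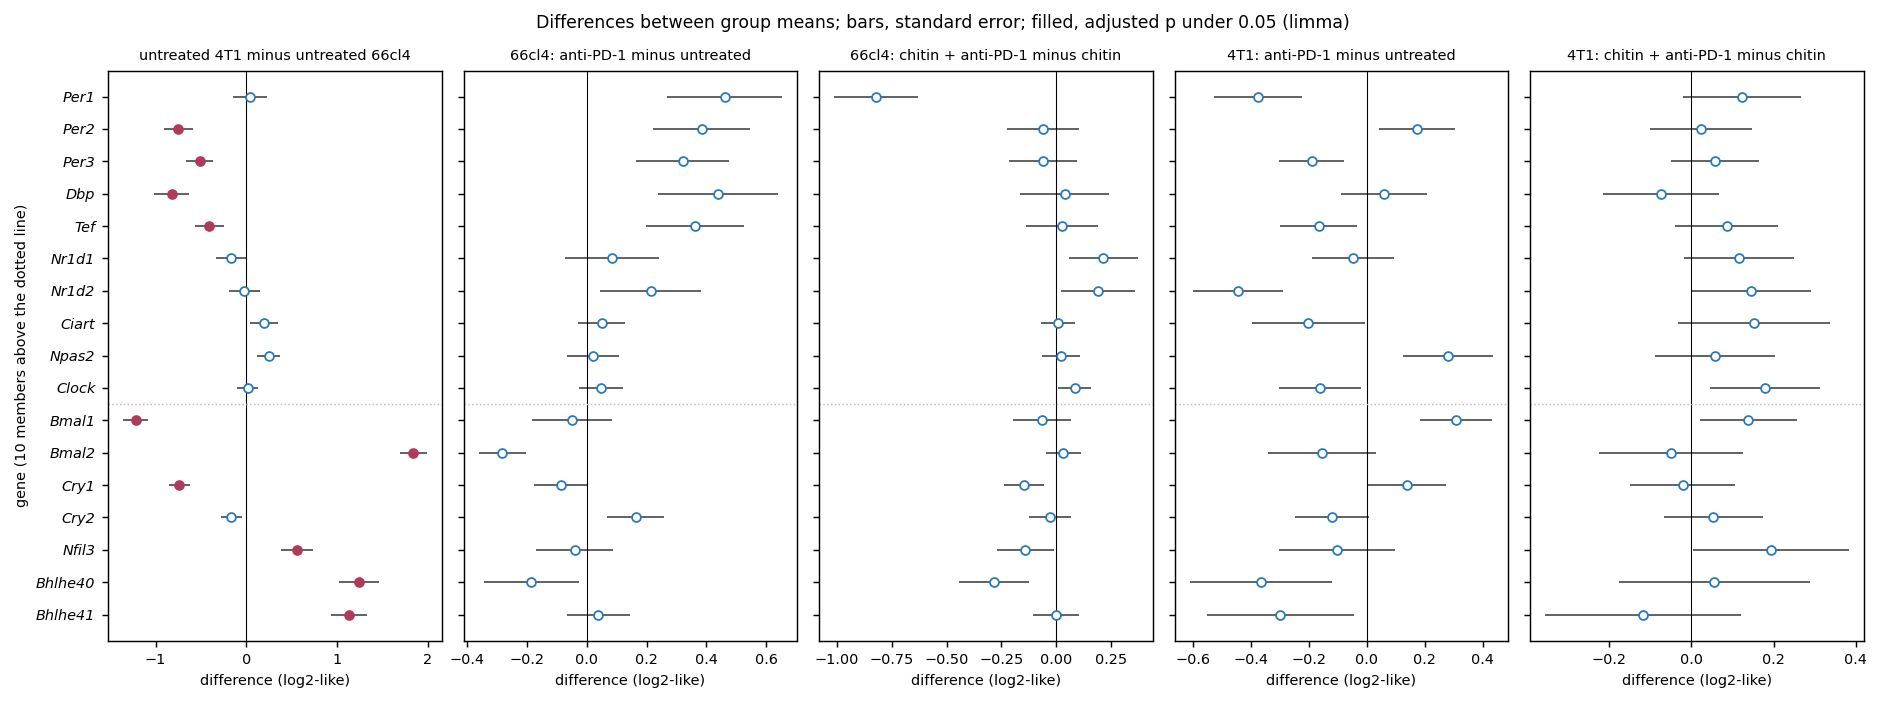
Differences between group means (x axis, log2-like scale) for the 10 clock genes and 7 other named clock genes (y axis) in 5 comparisons, with the standard error as bars. Filled points passed an adjusted p of 0.05 in limma and occur only between the untreated models, where Dbp, Per2, Per3, Tef, Bmal1 and Cry1 lie to the left and Bmal2, Nfil3, Bhlhe40 and Bhlhe41 to the right of 0. Of all genes, 55.8% passed between the untreated models.

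Other genes of the clock pointed in both directions between the models. Of 29 measured genes outside the 10, 9 were higher and 8 were lower in untreated 4T1 tumors, and the remaining 12 did not pass. Of all genes, 55.8% passed the same test, 28.7% higher and 27.1% lower in 4T1. The count is close to that share, so it is no result about clock genes as a set. Bmal1, the partner of CLOCK, was lower in 4T1: it stood at 7.62, 7.30, 7.67 and 7.86 in 4T1 and at 9.11, 8.92, 8.32, 8.60 and 9.21 in 66cl4 (difference -1.22 ± 0.14, adjusted p in limma = 3.9e-09). Cry1, the repressor that acts with the PER proteins, was lower by 0.74 (difference -0.74, adjusted p = 2.9e-06), while Cry2 did not pass (-0.16). Bmal2, a relative of Bmal1, took the opposite course, with 114 to 218 reads in untreated 4T1 and 3 to 6 reads in untreated 66cl4 tumors (difference 1.84, adjusted p = 6.3e-13). Nfil3, the D-box repressor that opposes Dbp and Tef, was higher in 4T1 (0.55, adjusted p = 0.0081).

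Rorb, a ROR receptor gene, was lower in 4T1, with 1 to 6 reads in untreated 4T1 and 266 to 410 in untreated 66cl4 tumors (difference -2.70, adjusted p in limma = 2.8e-20). Bhlhe40 and Bhlhe41, repressors that compete for the E-box, were higher in 4T1 by 1.24 and 1.13 (adjusted p = 1.1e-05 and 1.2e-05). Of the clock-controlled genes, Nampt, which makes NAD, was higher by 1.12 (adjusted p = 6.8e-06) and Lonrf3 lower (difference -1.06, adjusted p = 2.5e-11). Smaller differences passed for 6 named genes that modify or degrade clock proteins: Csnk2b, Fbxw11 and Usp7 were higher in 4T1 by 0.18 to 0.39, and Csnk2a1, Btrc and Gsk3b lower, with differences of -0.25 to -0.29.

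The models also differed in what the tumors held. In untreated tumors, the summed normalized count of 10 mammary epithelium markers had a median of 31837 in 4T1 and 4774 in 66cl4, that of 9 macrophage markers 19780 and 36736, that of 8 fibroblast markers 40863 and 11052, and that of 12 skeletal muscle markers 1698 and 159. Untreated tumors of both models overlapped in the muscle sum, at 200 to 6315 in 4T1 and 124 to 4296 in 66cl4, and not in the other sums. The part of these cell types in the differences of clock genes between models was not tested.

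The next comparison asked what anti-PD-1 alone did in each model. In 66cl4 all 10 clock genes had a higher mean with anti-PD-1 than without treatment, although Nr1d1, Ciart and Npas2 turned negative without single tumors (to -0.071, -0.010 and -0.028), and none passed, with adjusted p in limma of 0.91 to 0.99. No gene of the table passed either (0%), and 7310 of all 14318 genes had a higher mean. At an unadjusted p under 0.05 stood 4 of the 10 members, and 767 of all genes (5.36%). These were Per1 (0.46 ± 0.19, SE, n = 5 and 5), Dbp (0.44 ± 0.20), Per2 (0.38 ± 0.16) and Tef (0.36 ± 0.16). Per3 differed by 0.32 ± 0.16, Nr1d2 by 0.21 ± 0.17 and Nr1d1 by 0.09 ± 0.16. The median difference of the 10 was 0.27, against 0.0020 for all genes. Regardless of sign, the median size was 0.27 against 0.053. In 66cl4, Per1, Per2, Per3, Dbp, Tef, Nr1d1 and Nr1d2 had an SD within groups of 0.27 to 0.35, where the median gene had 0.11. The sizes are thus not set against genes of like spread, and the part of the spread in them was not tested. Anti-PD-1 tumor 3 stood low for all of Per1, Per2, Per3, Dbp and Tef, and without it the differences were 0.62, 0.57, 0.47, 0.60 and 0.53, still with no gene past the threshold. Other omissions brought them down, to 0.31 for Per1 (without untreated tumor 3), 0.26 for Per2 (without anti-PD-1 tumor 2), 0.29 for Dbp (without anti-PD-1 tumor 4), and 0.23 for Per3 and 0.28 for Tef (both without anti-PD-1 tumor 5). Most of these genes also varied together within groups, so their differences are not independent of each other. Of the 29 other clock genes 14 were higher and 15 lower, 0 passed, and 1 stood under an unadjusted p of 0.05, Bmal2 at -0.28.

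In 4T1 the picture under anti-PD-1 was mixed, and again 0 of the 10 genes and 0% of all genes passed. Nr1d2 was lower with anti-PD-1 at 8.68, 9.21, 8.59, 8.55 and 8.59, against 9.26, 9.14, 9.30 and 8.97 in untreated tumors (difference -0.44 ± 0.15, adjusted p in limma = 0.52). Tumor 2 of the treated group lay inside the untreated range and the other 4 below it. Per1 differed by -0.38 ± 0.15 (adjusted p = 0.53), and both genes stood under an unadjusted p of 0.05, as did 8.89% of all genes. With limma tumor weights both passed (Per1 -0.55, adjusted p = 0.035, and Nr1d2 -0.54, adjusted p = 0.023), together with 960 genes in all. Among the other members 3 were higher, Npas2 by 0.28, Per2 by 0.17 and Dbp by 0.06, and 5 were lower by 0.05 to 0.20. Of the 29 other clock genes, 0 passed, 9 were higher and 20 lower, and 2 stood under an unadjusted p of 0.05, Bmal1 at 0.31 and the F-box gene Fbxw11 at -0.22. Cell markers differed between these groups as well: the summed count of 9 T-cell genes was 1056 to 2507 with anti-PD-1 and 432 to 1484 without, that of 4 B-cell genes 53.5 to 663 and 29.6 to 151, and that of 12 adipocyte genes 237 to 25419 and 388 to 2465. Their part in the values of the clock genes was not tested. Without anti-PD-1 tumor 2, which also stood high for Ciart, 80 genes of the table passed, none of them among the 10.

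Whether the response to anti-PD-1 differed between models was tested as an interaction over all 39 tumors. No member and 0% of all genes passed. The estimate, taken as the 4T1 minus the 66cl4 response, was negative for 9 of the 10 members, with a median of -0.32 against 0.0019 for all genes. Of all 14318 genes, 7080 had a negative estimate. Regardless of sign, the median size was 0.32 against 0.12. Per1, Per2, Per3, Dbp, Tef, Nr1d1 and Nr1d2 varied more within 66cl4 groups than most genes, and the part of that in these sizes was not tested. Members varied in part together within groups, so these estimates are not independent of each other. The estimate was furthest from 0 for Per1 (-0.84 ± 0.26, adjusted p in limma = 0.55), followed by Nr1d2 (-0.66), Tef (-0.53) and Per3 (-0.51). These 4 had an unadjusted p under 0.05, as did 7.27% of all genes.

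Between chitin + anti-PD-1 and chitin alone, 1 member stood apart in 66cl4 and 0 of 10 passed. Per1 had a mean of 9.31 ± 0.22 (SD, n = 5) with chitin and 8.49 ± 0.14 (SD, n = 5) with chitin + anti-PD-1, and the groups did not overlap, which held for 117 of all genes (0.817%). The difference of -0.82 ± 0.19 was larger in size than that of 99.8% of all genes, but it did not pass across the table (unadjusted p = 0.00037, adjusted p in limma = 1), and 0% of all genes did. Per1 also had a larger SD within 66cl4 groups than 97.1% of all genes. At an unadjusted p under 0.05 stood Per1 alone of the 10 and 3.07% of all genes. When limma was fitted to the 10 tumors of these groups alone, Per1 was the 1 gene that passed (adjusted p in limma = 0.045). Leaving out any single tumor gave differences of -0.91 to -0.76. Per2 and Per3 did not follow, with differences of -0.06 each. The REV-ERB genes were higher by 0.22 (Nr1d1) and 0.19 (Nr1d2), within their spread, and the other 5 members by 0.01 to 0.09. Of the 29 other clock genes 11 were higher and 18 lower, 0 passed, and 2 stood under an unadjusted p of 0.05, Coq10b at -0.20 and the kinase gene Csnk1e at -0.15.

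Markers of other cells and states also differed between these groups. The summed count of 12 skeletal muscle markers was 97.6 to 142 in the chitin tumors and 113 to 5237 with chitin + anti-PD-1, with a median of 1488. For 12 glucocorticoid-responsive genes, Per1 included, it was 6619 to 8296 and 5782 to 7111. Over deviations from group means in the 20 66cl4 tumors, Per1 was related to the muscle sum with r = -0.59 (rho = -0.57, permutation p = 0.0061 and 0.010) and to the glucocorticoid sum without Per1 with r = 0.57 (rho = 0.60, permutation p = 0.0085 and 0.0062). In the 19 4T1 tumors the relation to the muscle sum had the opposite sign (r = 0.35, rho = 0.26, permutation p = 0.14 and 0.28). That to the glucocorticoid sum was r = 0.52 there (rho = 0.53, permutation p = 0.022 and 0.021). Without the 2 tumors farthest in the marker sum, r was -0.51 and 0.30 for muscle in 66cl4 and 4T1. For the glucocorticoid sum it was 0.39 and 0.45. None of 52 such relations passed the Benjamini-Hochberg adjustment, the lowest adjusted p in a permutation test being 0.22 for r and 0.12 for rho. Their part in the Per1 difference was not tested.

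In 4T1, chitin + anti-PD-1 against chitin gave 0 of 10 members and 0% of all genes past the threshold. Differences were positive for 9 members, from 0.02 (Per2) to 0.18 (Clock), and negative for Dbp at -0.07. Of all 14318 genes, 7417 had a positive difference. No member was under an unadjusted p of 0.05, as 3.11% of all genes were. Of the 29 other clock genes 20 were higher and 9 lower, 0 passed, and 1 was under an unadjusted p of 0.05, Lonrf3 at 0.18.

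The chitin-containing groups against the others, taken as used in the choice of the genes, are described without a test, and nothing is read from the counts given with them. In 66cl4, 8 of the 10 genes had a lower mean with chitin: Per2 by far the most at -0.63 (SE 0.12), then Per3 (-0.21), Tef (-0.20), Ciart (-0.19), Dbp (-0.18), Clock (-0.09), Per1 (-0.08) and Npas2 (-0.01). Nr1d1 (0.11) and Nr1d2 (0.03) were higher. The small Per1 value averages over the highest (chitin) and the lowest (chitin + anti-PD-1) of the 4 groups. The same contrast had no gene past an adjusted p of 0.05 in the whole table (0%), and 15.6% of all genes and 2 of the 10, Per2 and Ciart, under an unadjusted p of 0.05. Of the 29 other clock genes 21 had a lower mean with chitin, among them Bhlhe41 (-0.34), the P450 reductase gene Por (-0.29) and Cry1 (-0.26), and 8 a higher one. Without untreated tumor 3, 269 genes of the table passed. In 4T1, 6 of the 10 were higher and 4 lower with chitin, from -0.16 (Tef) to 0.19 (Nr1d1), and 0 of 10 members and 7.28% of all genes had an unadjusted p under 0.05 (0% an adjusted one).

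Tumors of the same group differed widely in these genes. After the mean of its group was taken from each tumor, Per1, Per2, Per3, Dbp, Tef, Nr1d1 and Nr1d2 had a within-group SD of 0.27 to 0.35 in 66cl4, where the median gene had 0.11. Each of the 7 exceeded at least 95.0% of all genes in that. In 4T1 the same genes had SDs of 0.17 to 0.24 beside a median of 0.19, and 39.1% to 68.2% of genes had a lower SD. Clock, Ciart and Npas2 did not stand out in 66cl4, with 56.6% to 72.0% of genes below them.

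Dbp served as the reference for whether tumors of a group varied in step. In the 20 66cl4 tumors its deviations rose with those of Tef (r = 0.88, rho = 0.90), Nr1d1 (r = 0.86, rho = 0.83) and Nr1d2 (r = 0.85, rho = 0.79), each with a permutation p of 1e-05 for r, the smallest that 100000 resamples can give, and an adjusted p of 6e-05 over 18 relations. Per3 followed (r = 0.72, rho = 0.73, permutation p = 0.00033 and 0.00047, adjusted p = 0.0012). Without the 2 tumors farthest in Dbp the values were 0.85, 0.81, 0.77 and 0.61, and without any 1 tumor they stayed at or above 0.83, 0.83, 0.81 and 0.60. Per2 (r = 0.41, rho = 0.31), Ciart (0.30 and 0.08), Clock (0.21 and 0.27), Npas2 (0.17 and 0.29) and Per1 (0.09 and 0.02) did not pass, with adjusted permutation p of 0.19 to 0.70 for r. When values were shuffled only within groups, an alternative added after the data were seen, the same 4 genes passed (adjusted permutation p = 0.00018 to 0.0028).

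**Figure D3:**
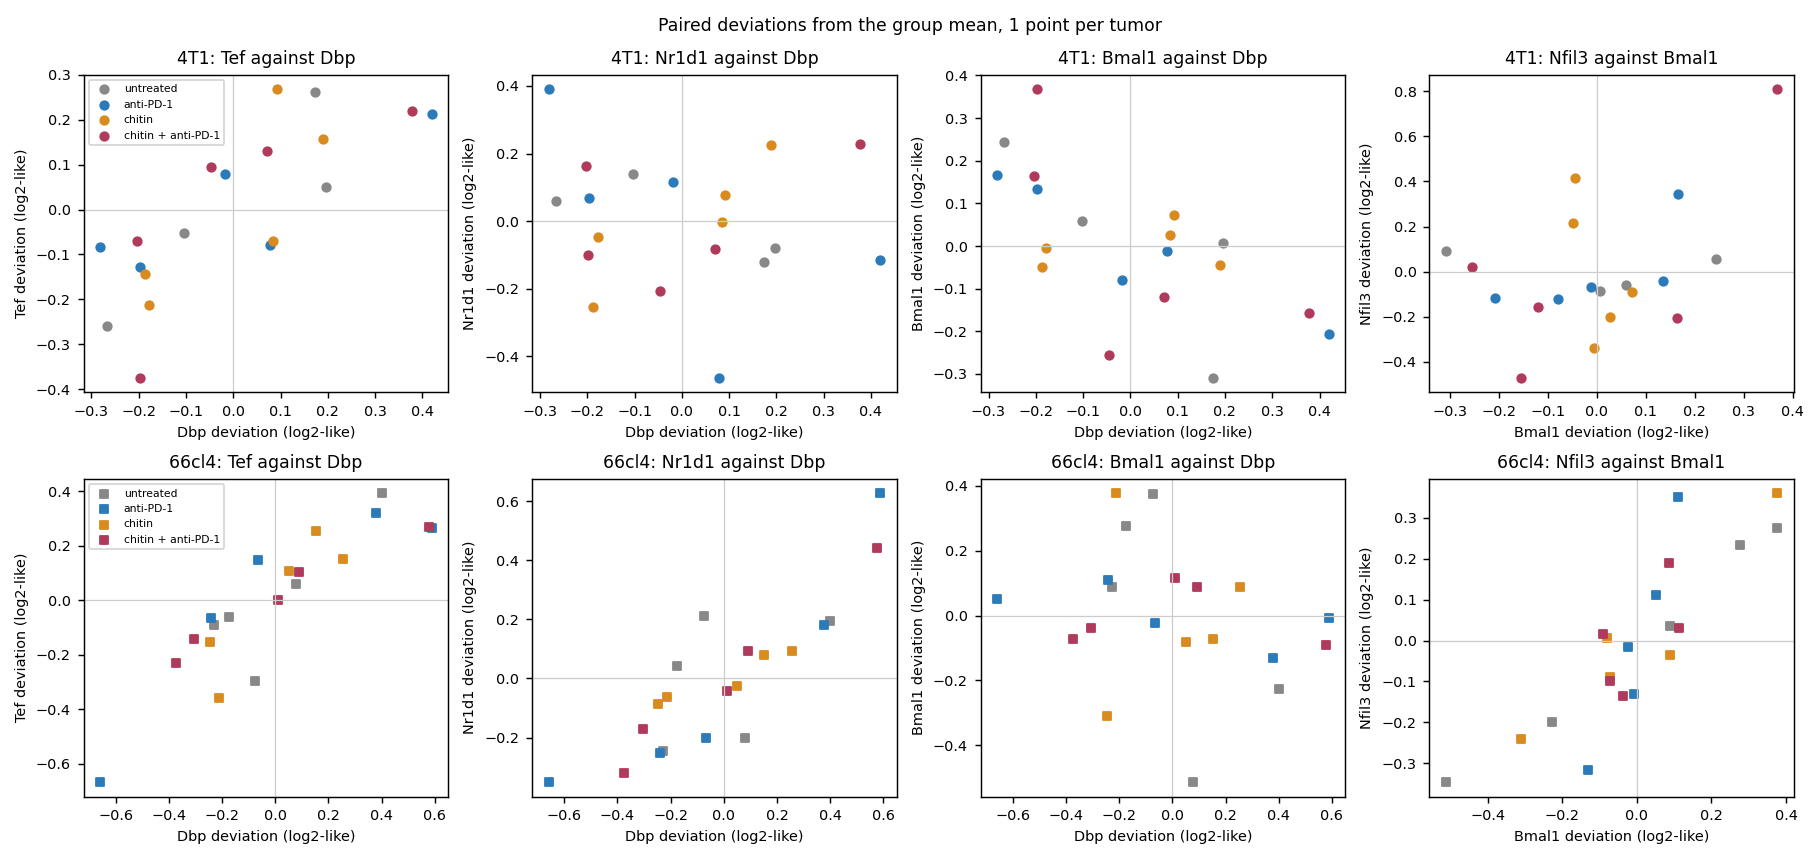
Deviation from the group mean of 1 gene against that of another (both axes log2-like), 1 point per tumor and colors for treatment, for the 4T1 (top) and 66cl4 tumors (bottom). Tef rises with Dbp in both models (r = 0.79 and 0.88), Nr1d1 rises with Dbp in 66cl4 (0.86) and not in 4T1 (-0.13), and Bmal1 runs against Dbp in 4T1 (-0.67).

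In the 19 4T1 tumors, Dbp was related to Tef (r = 0.79, rho = 0.79, permutation p = 8e-05 and 0.0001, adjusted p = 0.00036) and Per3 (r = 0.60, rho = 0.61, permutation p = 0.0069 and 0.0063, adjusted p = 0.021). Without the 2 tumors farthest in Dbp, r was 0.76 for Tef and 0.56 for Per3, and without untreated tumor 5 the Per3 relation no longer passed (r = 0.55, adjusted permutation p = 0.059). The relations of Nr1d1 (r = -0.13, rho = -0.14) and Nr1d2 (r = 0.19, rho = 0.29) with Dbp did not pass in 4T1. Leaving out anti-PD-1 tumor 2 turned the Nr1d1 value to 0.07 and raised the Nr1d2 value to 0.51, which did not pass either. The difference between models in these correlations was not tested. Per2 (0.38), Per1 (0.31), Npas2 (-0.20), Ciart (-0.30) and Clock (-0.37) did not pass either, with adjusted permutation p of 0.24 to 0.52.

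The common variation can be read in single tumors. Relative to its group mean, tumor 3 of the 66cl4 anti-PD-1 group was low for Dbp (8.01 against a mean of 8.66), Tef (8.87 against 9.54), Per3 (7.93 against 8.53), Nr1d1 (8.32 against 8.67), Nr1d2 (8.94 against 9.40) and Per2 (8.01 against 8.76). Tumor 4 of the same group was high for Dbp (9.25), Nr1d1 (9.30) and Nr1d2 (9.89), and tumor 1 of the 66cl4 chitin + anti-PD-1 group for Dbp (8.86), Nr1d1 (9.29) and Nr1d2 (9.75). High and low tumors were thus found within 1 group.

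**Figure D4:**
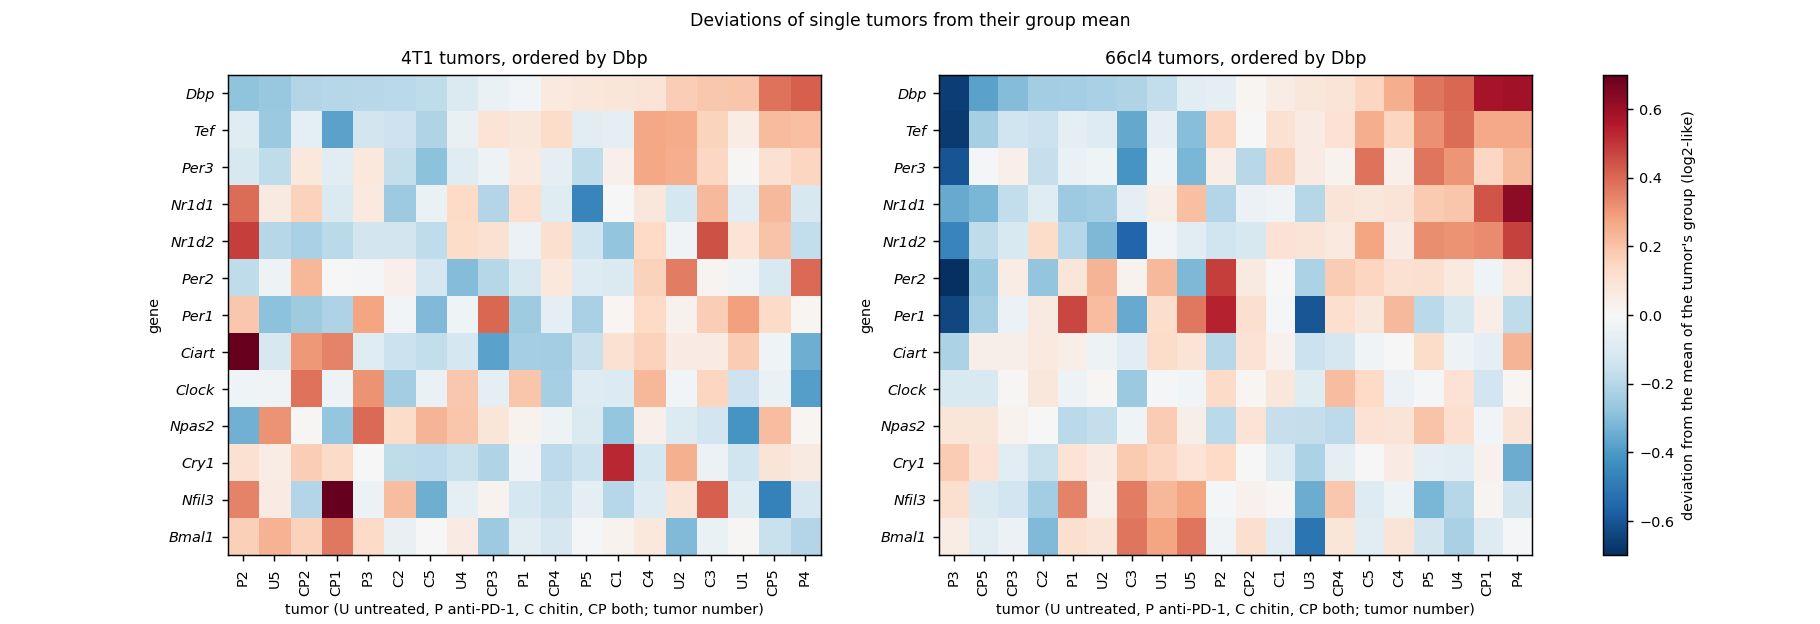
Deviation of each tumor (columns, ordered by Dbp) from the mean of its group for 13 clock genes (rows), as colors from -0.7 to 0.7 on the log2-like scale. In 66cl4, Tef, Per3, Nr1d1 and Nr1d2 change from blue to red along with Dbp, while in 4T1 only Tef and Per3 do.

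As a description over all pairs, the 8 members other than Clock and Npas2 had 28 of 28 pairwise correlations above 0 in 66cl4, with a median of 0.44. The 5 genes Dbp, Tef, Per3, Nr1d1 and Nr1d2 had a median of 0.82, Tef and Per3 being the closest pair (0.92). In 4T1 21 of 28 pairs were above 0 with a median of 0.29, and the 5 genes had a median of 0.36. The median over all pairs of genes was 0.00012 in 66cl4 and -0.0027 in 4T1. Per1 had values of 0.05 to 0.26 with these 5 genes in 66cl4, and 0.60 with Per2. The relation with depth was computed as a description and its part in the common variation was not tested. Dbp deviations had r = -0.22 with log2 reads in 66cl4 and 0.33 in 4T1, and Clock in 66cl4 had -0.61, while the other members lay between -0.37 and 0.33 in both models.

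**Figure D5:**
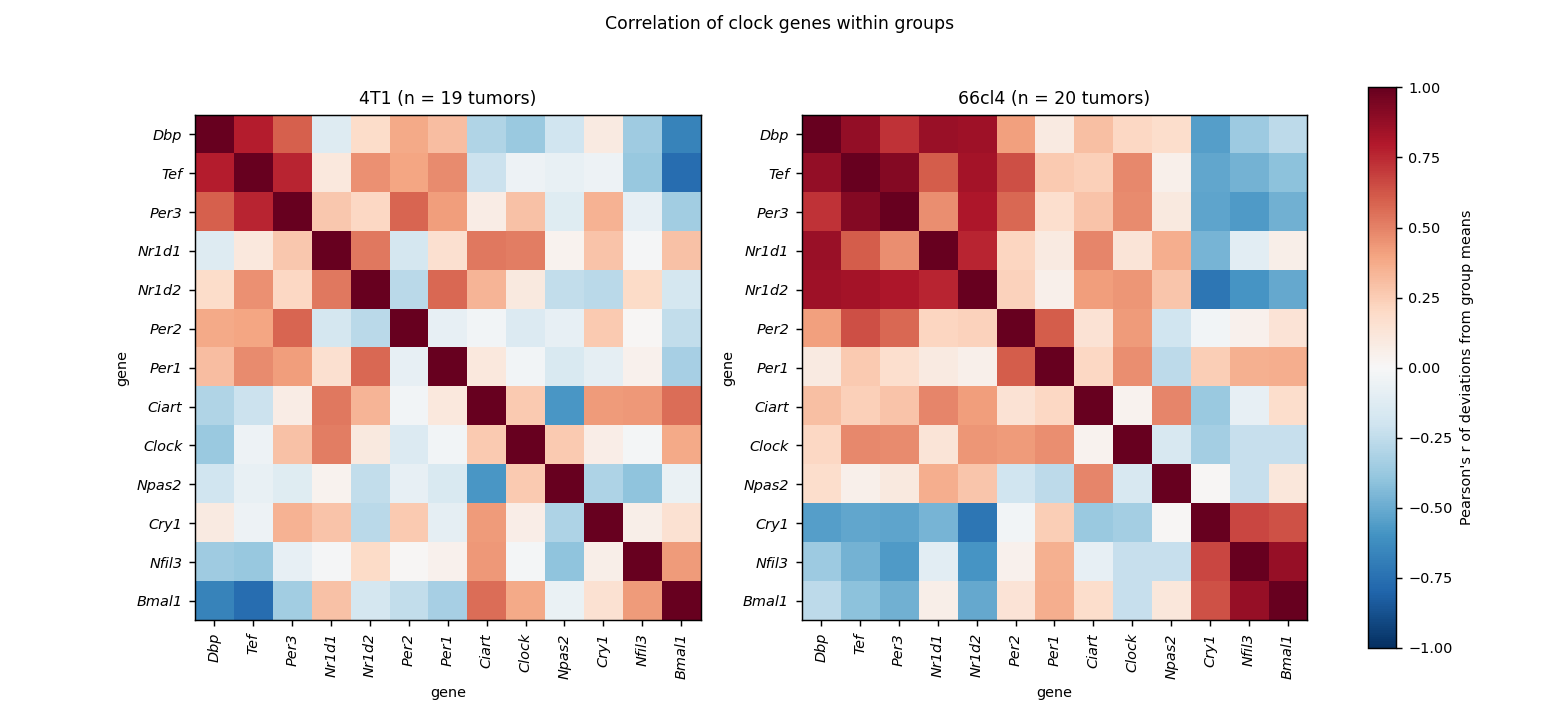
Pearson correlations of deviations from group means between 13 clock genes (both axes), in 19 4T1 and 20 66cl4 tumors, as colors from -1 to 1. The block of Dbp, Tef, Per3, Nr1d1 and Nr1d2 is red throughout in 66cl4, with a median r of 0.82, while Bmal1, Nfil3 and Cry1 form a second red block there.

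Genes of the opposite arm were looked at in 26 relations of Dbp and Bmal1 with other clock genes, chosen after values had been seen. In 66cl4, Bmal1 rose with Nfil3 (r = 0.87, rho = 0.85, permutation p = 1e-05, adjusted p = 0.00026, r = 0.81 without the 2 farthest tumors) and with Cry1 (r = 0.64, rho = 0.67, permutation p = 0.0025 and 0.0015, adjusted p = 0.022, r = 0.49 without the 2 farthest). Both are REV-ERB targets like Bmal1, and the part of REV-ERB in these relations was not tested. With Bmal1, Nfil3 and Cry1 in 66cl4, Nr1d1 had r = 0.06, -0.11 and -0.47, and Nr1d2 had -0.51, -0.59 and -0.72. In 4T1 the values were 0.29, -0.01 and 0.29 for Nr1d1 and -0.17, 0.19 and -0.27 for Nr1d2. Dbp and Bmal1 were inversely related in 4T1 (r = -0.67, rho = -0.67, permutation p = 0.0020 and 0.0023, adjusted p = 0.022, r = -0.60 without the 2 farthest), which missed the threshold when shuffled within groups (adjusted permutation p = 0.051). In 66cl4 this pair had r = -0.26 (rho = -0.28, adjusted permutation p = 0.37), and Dbp with Cry1 r = -0.55 (rho = -0.50, adjusted permutation p = 0.073 and 0.12). For Nfil3 with Bmal1 in 4T1, r was 0.43 (rho = 0.22, adjusted permutation p = 0.21 and 0.48). The other 20 of the 26 relations did not pass.

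The genes most like Dbp over deviations of all 39 tumors, given with no test, began with members: Tef (r = 0.85), Per3 (0.69) and Nr1d2 (0.62). Nr1d1 ranked 17 and Per2 155 of all genes. Sphk2, a sphingosine kinase gene that overlaps Dbp on the genome, ranked 3 (0.68). B3galt4 (0.61), Hapln1 (0.61, named from RefSeq by its identifier), Inpp5k (0.60), Erlec1 (0.60), Ptprtos (0.59) and Ankrd16 (0.58) completed the 10. Ptprtos had no read in any 4T1 tumor, so its value rests on 66cl4 alone. The values of Nr1d2 (0.19 in 4T1 and 0.85 in 66cl4) and Hapln1 (0.18 and 0.72) also come mainly from 66cl4. Hapln1 had a mean of 6.34 on the deposited scale, close to the 6.05 of no read, so its value rests on few reads. The most opposite were Ahsa1, a co-chaperone of HSP90 (-0.68), Dctd (-0.66), Calr, the calreticulin gene (-0.64), Hnrnpc (-0.63) and Spidr (-0.63).

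Sums of marker lists moved with Dbp to a lesser degree. In 66cl4 tumors, Dbp deviations had r = 0.54 (rho = 0.60) with 9 macrophage markers, r = -0.52 (rho = -0.52) with 10 proliferation genes and r = 0.45 (rho = 0.56) with 9 T-cell genes. None passed over the 52 relations (adjusted permutation p = 0.23, 0.23 and 0.42 for r, and 0.12, 0.14 and 0.13 for rho). Their part in the common variation of the clock genes was not tested.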

How the data were processed

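RNA from whole primary tumors was sequenced from stranded libraries. According to the study's methods and processing notes, the authors mapped reads with HISAT2 to mm10, counted them per gene by strand with summarizeOverlaps, kept genes above 10 reads in at least 10% of cases, and deposited variance-stabilized log2 values from DESeq2. Of 40 labelled samples 39 had a column, 0 columns were left unused, and 14259 of 14318 genes had a symbol. Variance stabilization pulls genes with few reads together, which understates their differences. Reads were recovered by inverting the transformation, and 100% of values came out whole within 0.001. They gave depth, read numbers and levels per kilobase of exon.

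Groups were compared on the deposited values with limma 3.58.1 in R 4.3.3 (lmFit, eBayes with a trend), each model in a fit of its 4 groups and comparisons between models in a fit of all 8, with Benjamini-Hochberg adjustment over all genes. Replicates are separate tumors, which may share a mouse, and p-values measure the spread between these tumors. Correlations used deviations from group means, with two-sided permutation tests of 100000 resamples, in Python 3.11.15 with scipy 1.17.1, numpy 2.4.6 and pandas 2.3.3. Figures were drawn with matplotlib 3.10.9. Promoters were RefSeq sequences of GRCm38.p6. All scripts that test across genes were tested on simulated data.

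The members, the marker and clock gene lists and the tests were chosen with earlier results of these data known. Genes named by rule were the 10 members, Bmal1, Cry1, Cry2, Nfil3, Bhlhe40, Bhlhe41, any other clock gene that passed a test, and the 10 genes most like and 5 genes least like Dbp. Por, Coq10b and Csnk1e, and Bmal2, Fbxw11 and Lonrf3 in treatment comparisons, were named after their values were seen. Alternatives were median centring, no trend, log2 of normalized reads + 1, quantile normalization, a filter on low genes, tumor weights, limma-voom on recovered reads, equal read depth, other groups in the fit, tumor number as a block, and each tumor left out. Tumors that share a number did not deviate together: the correlation over 27 such pairs in 4T1 was -0.39 to 0.45 and over 30 in 66cl4 -0.30 to 0.54, where 0.1 in every pair was required. Sums of markers for adipocytes, neutrophils, B cells, endothelium, lactating mammary epithelium and immediate-early genes were also related to Dbp and Per1, and none passed. Some results are not reported here.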

Additional observations from a re-analysis of the deposited data

Results flagged for a closer look

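Among 80 sets of 1 clock gene in 1 group, 3 held a tumor far from the others by Dixon's criterion, which chance gives for about 1 in 20 sets. Nr1d2 in tumor 2 of the 4T1 anti-PD-1 group stood at 9.207 (348 reads), with the other 4 tumors at 8.55 to 8.68. Ciart in the same tumor stood at 7.678 (70 reads), with the others at 6.51 to 6.77. Without it, the Nr1d2 difference between anti-PD-1 and untreated 4T1 tumors was -0.57. Nr1d2 in tumor 3 of the 66cl4 chitin group stood at 8.672 (544 reads), with the others at 9.28 to 9.50, and without it the difference between chitin + anti-PD-1 and chitin was 0.05 in place of 0.19.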

How the results depend on the processing

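Npas2 and Ciart were limited by few reads. Counts of calls stayed within 1.5 times the reported one for 209 of 228 values under other settings. With a tumor left out, 607 of 624 did. Of single-gene values, 621 of 645 and 2012 of 2033 were counted as kept. Outside the chitin contrast, kept means the same direction and side of the threshold. For the chitin contrast the same sign was not required. For example, with a tumor left out, Per1 in 4T1 went from -0.036 to 0.012 and Npas2 from 0.047 to -0.022. Both were counted as kept. The causes of the values not kept were not tested. Counts for chitin below are of the contrast taken as used in choosing the members: they are listed as values and are no support for any member.

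Tumor weights gave calls in 4T1 for chitin (297 genes) and anti-PD-1 (960 genes, 2 members, 2 other clock genes), in 66cl4 for chitin (185 genes, 1 member, 2 other clock genes), and for the difference between models in the anti-PD-1 response (331 genes, and 1 member, Per1, at -0.99 with an adjusted p in limma of 0.047). Fitting other groups gave 58 genes for 4T1 chitin, 1 gene, Per2, for 66cl4 chitin, and 1 gene, Per1, for 66cl4 chitin + anti-PD-1 against chitin. Without the lowest 25% of genes, 66cl4 chitin gave 6 genes with 1 member. Leaving out 1 tumor gave 0 to 1 gene for 4T1 chitin, 0 to 80 for 4T1 anti-PD-1, 0 to 2 for 4T1 chitin + anti-PD-1 against chitin, 0 to 269 for 66cl4 chitin (0 to 1 member, 0 to 2 other clock genes) and 0 to 86 for the difference between models. Between untreated models it gave 7406 to 8217 genes and 3 to 5 members, and Npas2 passed without 4T1 untreated tumor 1 (0.38, adjusted p in limma = 0.015).

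With tumor number as a replicate block, 66cl4 chitin gave 16 genes with 1 member and 1 other clock gene, and Nfil3 between models did not pass (0.53, adjusted p in limma = 0.086). The numbers did not pair the tumors. Under the block, Per1 between untreated models reversed to -0.11, and the correlations of Per1 and Clock with Dbp in 66cl4 to -0.20 and -0.11.

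Signs of other small values reversed too. Between untreated models, Per1 was -0.0025 with weights, -0.033 at equal depth and -0.11 to 0.13 with a tumor left out, Nr1d2 was 0.0089 with weights and -0.10 to 0.056 with a tumor left out, and Clock was -0.015 with median centring, -0.017 with quantile normalization, -0.013 with weights, -0.045 with voom, -0.091 at equal depth and -0.049 to 0.062 with a tumor left out. For 66cl4 anti-PD-1, leaving out a tumor gave -0.071 to 0.17 for Nr1d1, -0.010 to 0.10 for Ciart and -0.028 to 0.068 for Npas2. For correlations with Dbp it gave -0.32 to 0.071 for Nr1d1 in 4T1 and -0.26 to 0.18 for Per1 in 66cl4.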
